A study of Mus musculus with 8 samples.

Results

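The genes described here encode the proteins of the cytosolic ribosome, followed in PDGFRA+ cells sorted from the ventricles of mice with and without deletion of Lmna, the gene of the nuclear lamina proteins lamin A and lamin C. Members were taken by symbol alone: names that start with Rpl or Rps and go on with a digit, or that start with Rplp, without the Rps6k kinases and without symbols that carry a -ps pseudogene mark. This gave 84 of the 18957 genes listed. By role they comprise 30 small subunit proteins, 43 large subunit proteins, the 3 proteins of the stalk, 6 paralogs with an l in the symbol and 2 further genes, Rps27rt (a single-exon copy of Rps27) and Rps19bp1 (a binding partner of Rps19 and not a ribosomal protein). The 76 proteins of the subunits and the stalk are called canonical below. The symbol rule leaves out Rpsa, Fau and Rack1, among others, which also sit in the ribosome and are given separately. The family itself was selected on the genotype contrast of these same 8 libraries, in which it stood higher in the knockout, so every genotype difference of a member is a description, and counts of members past a p threshold are no evidence of a difference.

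There were 4 WT libraries and 4 Pdgfra-Cre:LmnaF/F libraries (knockout below), 1 per mouse, from animals 3 to 4 weeks old on a C57BL/6 (mixed) background. Knockout mice carried a floxed exon 2 on both Lmna alleles and a Cre driven by Pdgfra regulatory sequence in a BAC transgene. WT littermates carried neither, so an effect of the Cre transgene and an effect of Lmna loss cannot be told apart here. PDGFRA marks cardiac fibroblasts but also other mesenchymal cells, and the study describes deletion of Lmna in some cardiac myocytes as well. Cells were sorted as PDGFRA positive and negative for a cocktail of hematopoietic lineage markers. RNA was depleted of ribosomal RNA and sequenced with strand information, so the files report ribosomal protein mRNA and say nothing of ribosome number.

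A ribosome is built from ribosomal RNA and a single copy of nearly every ribosomal protein, apart from the stalk proteins Rplp1 and Rplp2, which are present as dimers. The mRNAs of these proteins are short, very abundant and start with a run of pyrimidines at the cap, the 5′ terminal oligopyrimidine (TOP) tract, through which mTORC1 and the RNA-binding protein Larp1 control their translation. Ribosomal proteins made in excess of ribosomal RNA are degraded, and some of them, such as Rpl5 and Rpl11, can bind Mdm2 and stabilise p53. In cardiac fibroblasts, ribosome production supports the synthesis of extracellular matrix.

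The libraries held between 2080555 (WT replicate 2) and 12502949 (knockout replicate 4) counts in genes. Lmna was measured first as a check of the labels. Its CPM values (read counts per 1000000 counts in genes, with library sizes scaled by the trimmed mean of M-values, or TMM) were 331, 274, 483 and 374 in WT and 126, 97.4, 130.0 and 90.4 in the knockout, with no overlap and a log2 fold change of -1.72 (SE 0.22) (edgeR adjusted p = 0.00492). The summed CPM of the 8 mesenchymal markers was 48869 to 56433 in WT and 42217 to 58684 in the knockout. None of the genes tested on 9 lists of cell type markers passed the test, which called 0.407% of all genes. Higher in the knockout were 3 of 8 mesenchymal, 1 of 6 endothelial, 4 of 6 leukocyte, 3 of 4 cardiomyocyte and 2 of 6 mural markers tested. So were 1 of 2 Schwann, 2 of 4 erythroid, 1 of 5 proliferation and 0 of 4 epicardial markers. The epicardial markers summed to 8.47 to 37.2 CPM in WT and 6.67 to 14.3 CPM in the knockout. Several libraries stood apart from the rest. In knockout replicate 4, the 6 cardiomyocyte markers summed to 2776 CPM against 149.6 to 544 in the other 7 libraries, and the 6 leukocyte markers to 403 CPM against 44.3 to 210.1. WT replicate 3 lay farthest out on the first principal component of the most variable genes (-50.5, against -15.2 to 27.2 in the others), and the 5 proliferation markers summed to 215 CPM in WT replicate 2 and 80.0 CPM in WT replicate 3 against 7.20 to 14.4 CPM elsewhere. The 4 erythroid markers summed to 646 CPM in knockout replicate 1, against 16.6 to 45.01 CPM in the other knockout libraries and 31.5 to 353 CPM in WT. Transcripts of 4 Y-linked genes were at 143 to 273.4 CPM in WT replicates 1, 2 and 4 and in knockout replicate 4, and at 0.207 to 1.96 CPM in the other 4 libraries, so the knockout group held 1 library with Y-linked transcripts and the WT group 3. The labels give no sex.

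Ribosomal protein mRNA took up 1.81% to 2.57% of all counts in the WT libraries and 2.64% to 4.85% in the knockout libraries. The shares were 2.26, 1.81, 2.57 and 2.42% in WT replicates 1 to 4 and 2.64, 3.32, 2.74 and 4.85% in knockout replicates 1 to 4. On these raw totals the groups did not overlap, but with TMM library sizes, the scaling behind the CPM values below, they did: knockout replicate 1 was at 2.57% and WT replicate 3 at 2.61%. The mean share was 2.26% ± 0.329 in WT and 3.39% ± 1.02 in the knockout (SD, n = 4 each), a ratio of 1.497. Without knockout replicate 4 the knockout mean was 2.90% and the ratio 1.28. Exact binomial 95% intervals of the shares were narrow, from 1.79% to 1.83% in the shallowest library, and cover counting error only. In these bulk libraries more cells that are rich in ribosomal protein mRNA and more such mRNA per cell cannot be told apart.

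**Figure D1:**
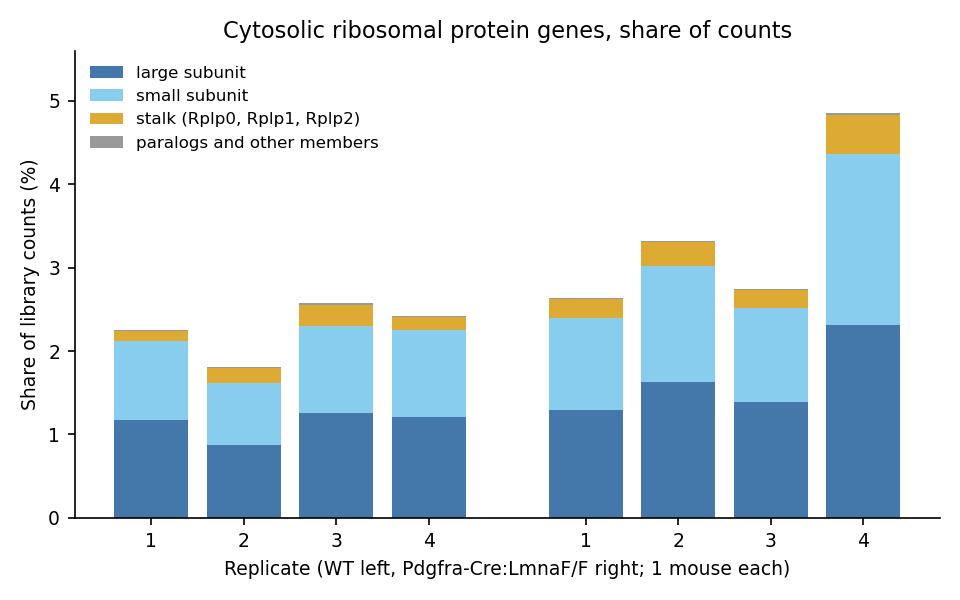
Share of each library's gene counts that fell on ribosomal protein genes, stacked by role, for the 4 WT and 4 Pdgfra-Cre:LmnaF/F libraries (1 mouse per bar). WT libraries reached 1.81% to 2.57% and knockout libraries 2.64% to 4.85%, with knockout replicate 4 the highest.

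Both subunits were higher. Small subunit mRNAs made up 0.943% ± 0.140 of counts in WT and 1.42% ± 0.438 in the knockout, and large subunit mRNAs 1.13% ± 0.176 and 1.66% ± 0.462 (SD, n = 4). The ratio of small to large subunit counts was 0.814 to 0.854 in WT and 0.819 to 0.883 in the knockout, and the groups overlapped. The stalk mRNAs made up 0.119% to 0.251% of counts in WT and 0.210% to 0.475% in the knockout, also with overlap. Knockout replicate 4 held the highest value of 69 of the 76 canonical members, and WT replicate 2, the shallowest library, the lowest value of 59. Among the 4 libraries with few Y-linked transcripts, the family took 2.57% of counts in WT replicate 3 and 2.64% to 3.32% in knockout replicates 1 to 3. Among the 4 libraries with Y-linked transcripts it took 1.81% to 2.42% in WT and 4.85% in knockout replicate 4. Each of these strata held only 1 library of a genotype, and the part of sex, of cardiomyocyte or leukocyte RNA and of depth in the family's level was not tested.

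Of the 84 members, 82 passed the filter on low counts, the other two being Rpl3l and Rpl39l. Gene by gene, 78 of these 82 were higher in the knockout and 4 were lower, and the median log2 fold change was 0.55 (interquartile range 0.35 to 0.73) against 0.02 over all 13036 genes tested. edgeR's quasi-likelihood test with Benjamini-Hochberg adjustment over all genes called 0 of the 82, beside 0.407% of all genes tested. At an unadjusted p under 0.05, 40 members were higher and 0 lower, where 6.24% of all genes were higher. On the same filtered counts DESeq2 called 11 members, beside 2.58% of all genes with an adjusted p, and limma-voom 1, beside 0.967%. All 4 knockout libraries exceeded all 4 WT libraries for 20 members, where 4.06% of all genes tested did so. Since this contrast led to the choice of the family, nothing is read from these shares.

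**Figure D2:**
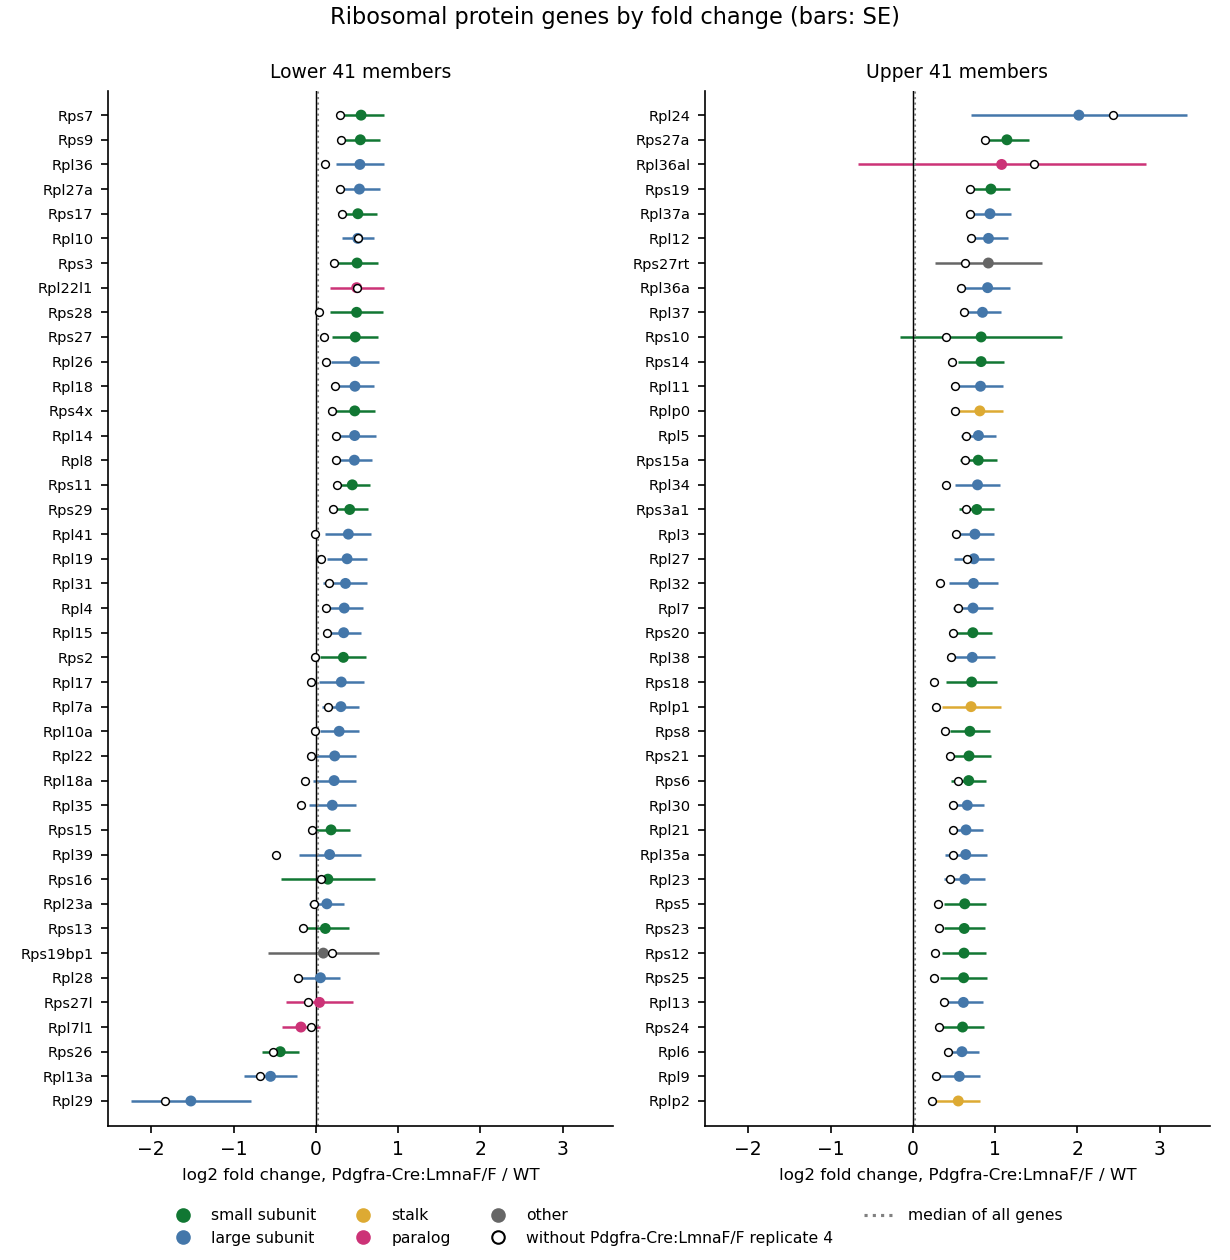
log2 fold change of knockout against WT for the 82 members tested, ordered by size (filled points coloured by role, bars the standard error of the edgeR fit, 4 libraries per genotype), with open points for the fit without knockout replicate 4 and a dotted line at the median of all genes. With all libraries 78 of 82 lie above 0, and without that library 65 of 82.

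The small subunit had a median log2 fold change of 0.61, with 29 of 30 genes higher. Rps27a, which encodes a small subunit protein made as a fusion with ubiquitin, had CPM values of 97.6, 63.4, 75.6 and 92.3 in WT and 126, 212, 117 and 274 in the knockout. Every knockout library lay above every WT library, and the log2 fold change was 1.14 (SE 0.27). Rps19, the gene most often mutated in Diamond-Blackfan anemia, was at 227, 198, 233 and 285 CPM in WT and at 345, 419, 387 and 670.4 CPM in the knockout. Its groups did not overlap either, with a log2 fold change of 0.95 (SE 0.23). Rps6, the small subunit protein phosphorylated by S6 kinases, was at 313, 334, 415 and 359 CPM in WT and 411, 602, 548 and 715 CPM in the knockout, so that its lowest knockout value fell below its highest WT value.

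Rps26 was the small subunit gene that stood lower. It encodes a protein near the exit of the mRNA channel. Its CPM values were 511, 369, 301 and 482 in WT and 324, 316, 229 and 364 in the knockout, with a log2 fold change of -0.43 (SE 0.22). The groups overlapped, since WT replicate 3 lay below 3 of the knockout libraries, and the value without knockout replicate 4 was -0.52. Knockout replicate 4, which held the highest value of most members, was below WT replicates 1, 2 and 4 for Rps26.

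The large subunit had a median log2 fold change of 0.53, with 41 of 43 genes higher. Rpl12, a protein at the base of the stalk, was at 287, 216, 381 and 305 CPM in WT and 434, 522, 504 and 791 CPM in the knockout, without overlap and with a log2 fold change of 0.92 (SE 0.24). Rpl37a was at 163, 151, 255 and 209 CPM in WT and 282, 387, 275 and 549 CPM in the knockout, again without overlap (0.94 (SE 0.26)). Rpl5, which carries the smallest ribosomal RNA into the large subunit together with Rpl11, was at 354, 301, 364 and 349 CPM and 430.1, 667, 517 and 763 CPM. Its knockout libraries all lay above the WT libraries, and its log2 fold change was 0.80 (SE 0.21). Rpl3, which reaches close to the peptidyl transferase centre, was at 364, 241, 384 and 311 CPM in WT and 439.7, 499, 465 and 790.0 CPM in the knockout. Knockout replicate 4 was well above the other knockout libraries, which themselves exceeded every WT library, and the log2 fold change of Rpl3 was 0.75 (SE 0.24).

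The lowest fold change of the large subunit rested on 1 library. Rpl29, a small basic protein, was at 11.7, 10.6, 24.1 and 196 CPM in WT and 21.7, 14.1, 16 and 33.8 CPM in the knockout. WT replicate 4 was far above every other library, and the log2 fold change of -1.52 (SE 0.73) turned to 0.46 without it. Rpl13a, which also has a described role outside the ribosome as a repressor of inflammatory mRNAs, was at 28, 38.2, 66 and 25.9 CPM in WT and 21, 23.8, 29 and 34 CPM in the knockout, with overlap and a log2 fold change of -0.55 (SE 0.32). Its highest value was that of WT replicate 3, without which the log2 fold change was -0.18. Rpl28 was at 190.0, 122, 173 and 157 CPM and 149.7, 123, 144 and 252 CPM, so that knockout replicates 1 to 3 fell within the WT range. Its log2 fold change was 0.06 (SE 0.24), and -0.21 without knockout replicate 4 and -0.06 without WT replicate 2.

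The stalk recruits the translation factors that bind GTP. Its 3 genes were all higher, with a median log2 fold change of 0.71, and all 3 overlapped between genotypes. Rplp0 was at 547, 714, 991 and 659 CPM in WT and 931, 1265, 913 and 2009 CPM in the knockout (0.81 (SE 0.28)). Rplp1 was at 416, 807, 1249 and 569 CPM in WT and 951, 1057, 763 and 2192 CPM in the knockout (0.71 (SE 0.36)). WT replicate 3 exceeded 3 of the 4 knockout libraries for Rplp1. Rplp2 was at 228, 390.5, 303 and 355 CPM in WT and 378, 413, 329.6 and 747 CPM in the knockout (0.55 (SE 0.27)).

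Much of the size of these differences came with knockout replicate 4. In an edgeR fit without that library the median log2 fold change of the members was 0.29, with 65 of 82 higher. At an unadjusted p under 0.05, 23 members were higher and 2 lower, where 5.27% of all genes were higher. Knockout replicates 1 to 3 all exceeded the 4 WT libraries for 21 members, and for 6.43% of all genes tested. The median was 0.46 without WT replicate 2 and 0.63 without WT replicate 3. When knockout replicate 4 and WT replicate 2 were both left out, the median was 0.21, 60 of 82 members were higher, and at an unadjusted p under 0.05 10 were higher and 3 lower, where 4.53% of all genes were higher. With the presence of Y-linked transcripts as a term in the fit, the median was 0.64 and 76 of 82 members were higher. Under that fit, which was added after the data were seen, edgeR called 3 members (Rps27a, Rpl36a and Rps19) beside 0.859% of all genes, and this too is a description of the contrast that chose the family. In the fit without knockout replicate 4, Rps27a kept a log2 fold change of 0.88, Rps19 of 0.70 and Rpl12 of 0.71, whereas Rpl28 was at -0.21 and Rpl39 at -0.49.

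Ribosomal protein genes also varied together among libraries of the same genotype, a measure that leaves the genotype difference out. After each genotype's mean was removed, the Pearson correlation between 2 canonical members over the 8 libraries had a median of 0.80, and 93.7% of pairs were above 0. The same median was 0.01 for 77 mitochondrial ribosomal protein genes, -0.00014 for 62 translation factors and 0.10 for 47 proteasome genes. These families took smaller mean shares of WT counts, 0.204%, 1.44% and 0.298%, against 2.25% for the canonical members. Low counts weaken correlations, and no comparison at like levels was made. The first principal component of the same deviations, in which genes of wide spread weigh more, held 49.9% of the variance of the canonical members, 38.6% of the mitochondrial family, 55.4% of the translation factors and 35.2% of the proteasome genes, so by this measure the translation factors stood higher. These values are descriptions over 8 libraries that share depth and composition, and knockout replicate 4 weighed on them: the canonical median was 0.59 over 7 libraries without it, and 0.42 over 6 libraries without WT replicate 2 as well, when the other families lay between -0.0047 and 0.14. Correlated with the mean of the other canonical members, 59 of 76 genes had r above 0.8 and 7 had r below 0.5. The 7 were Rpl24 (-0.76), Rps10 (-0.11), Rps16 (-0.04), Rpl13a (0.25), Rpl29 (0.43), Rps26 (0.44) and Rpl10 (0.46). Rps16, a small subunit protein, was at 183, 108, 13.4 and 75 CPM in WT and 184, 84.5, 30 and 122 CPM in the knockout, so that it spanned 13.4 to 183 CPM within WT alone.

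**Figure D3:**
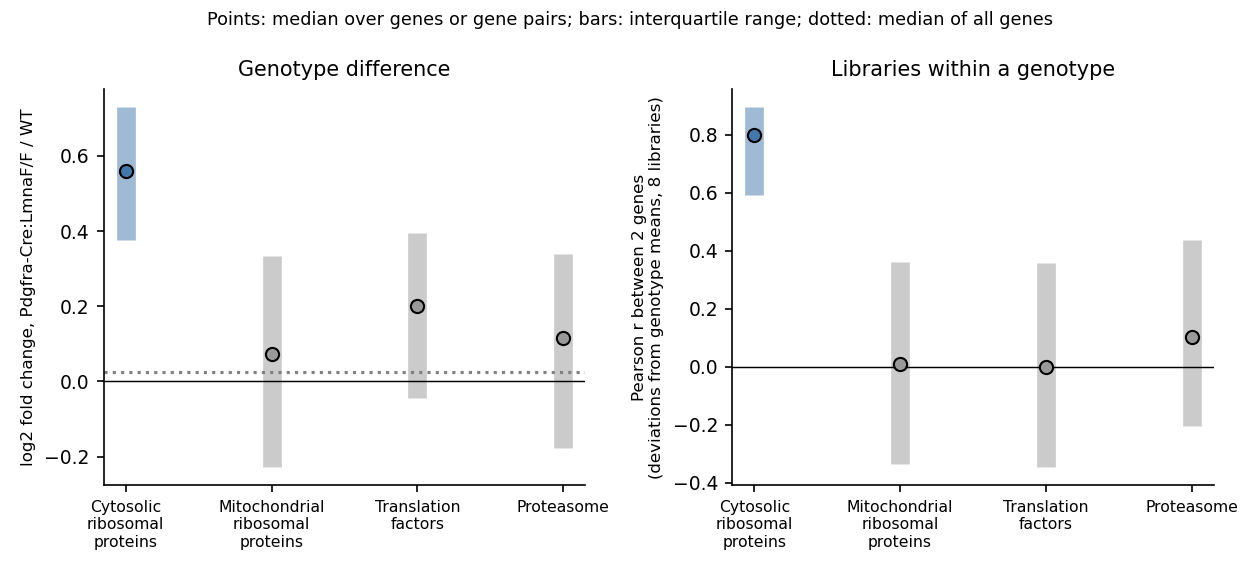
Left, median and interquartile range of the log2 fold change (knockout against WT) of 76 canonical ribosomal protein genes, 77 mitochondrial ribosomal protein genes, 62 translation factors and 47 proteasome genes, with the median of all genes dotted. Right, median and interquartile range of the correlation between 2 genes of the same family after removal of the genotype means; the cytosolic ribosomal proteins have medians of 0.56 and 0.80, the other families of 0.20 or lower in both panels.

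In the genotype contrast, the mitochondrial ribosomal proteins, which serve translation inside mitochondria, had a median log2 fold change of 0.07, with 43 of 77 genes higher. The translation factors had a median of 0.20 (43 of 62 higher) and the proteasome genes of 0.12 (29 of 47 higher). edgeR called 0 genes in each of these families, and at an unadjusted p under 0.05, 1, 7 and 7 genes were higher (1.3%, 11.3% and 14.9%), where 6.24% of all genes were. The mitochondrial family took 0.186% to 0.210% of counts in WT and 0.204% to 0.217% in the knockout. In knockout replicate 4, where the cytosolic family was highest, it was at 0.204%. The translation factors took 2.20% of counts in that library against 1.23% to 1.66% in the other 7.

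Levels between genes were compared as CPM per kilobase of the transcript that GENCODE release M21 (GRCm38, the same assembly as mm10) lists as principal. The median canonical member stood at 324 CPM per kilobase in WT, against 8.996 over all tested genes with a length. Of the 76, 23 were among the 100 genes with the highest level per kilobase and 67 among the 500 highest. Rplp1 had the highest mean level, 1523 ± 728 CPM per kilobase in WT (SD, n = 4), with libraries from 833 to 2502. Rpl41, which encodes a peptide of 25 residues, followed at 1306 ± 202, then Rps27 at 1076 ± 224, Rps14 at 1009.5 ± 178 and Rps12 at 976 ± 200.2 CPM per kilobase. Rps15, Rps9 and Rps29 completed the 8 highest, at 865 ± 131, 862 ± 121 and 707 ± 88.1 CPM per kilobase. Neighbours in this order differed by less than the larger of their SDs, except Rpl41 from Rps27 and Rps9 from Rps29. In the knockout, Rplp1 stood at 2487 ± 1294 and Rpl41 at 1719 ± 838 CPM per kilobase. These means rest on knockout replicate 4: without it the log2 fold change of Rpl41 was -0.0081 and that of Rplp1 0.28. Across the 76 members the order in the knockout followed that in WT (Spearman's rho 0.95 across genes, which are not independent replicates).

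**Figure D4:**
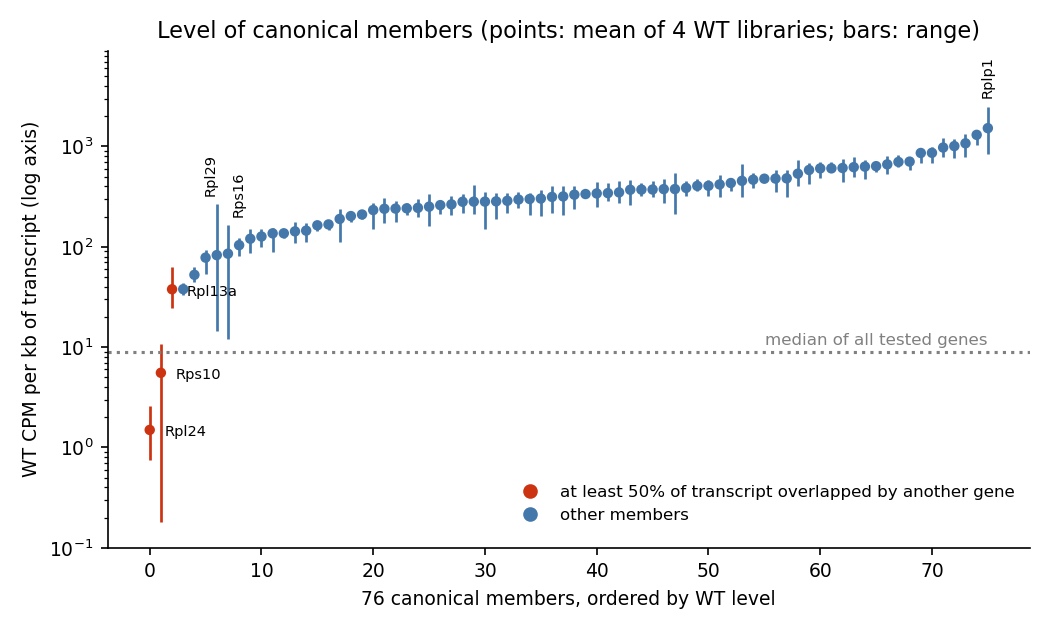
Level of each of the 76 canonical members in WT, as CPM per kilobase of transcript on a log axis (points the mean of 4 libraries, bars their range), ordered from lowest to highest. The 3 members whose transcript is overlapped over at least 50% of its length by another gene on the same strand (Rpl24, Rps10 and Rpl13a) are the 3 lowest; the dotted line is the median of all tested genes, 8.996.

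The 3 lowest canonical members shared a feature of the annotation. Rpl24 stood at 1.5 ± 0.835, Rps10 at 5.55 ± 4.55 and Rpl13a at 37.8 ± 17.6 CPM per kilobase in WT (SD, n = 4). Another gene annotated on the same strand covered 71.5% of the Rpl24 transcript, 53.6% of the Rps10 transcript and 59.3% of the Rpl13a transcript, and no other canonical member was covered over 50% or more. Such cover was found for 0.771% of all tested genes with a length. The covering genes were Gm28037 for Rpl24, RPS10-NUDT3 for Rps10 and Gm45713 with Mir5121 for Rpl13a. The SD within a genotype was 1.71 on the log2 scale for Rpl24 and 2.08 for Rps10, but 0.48 for Rpl13a, beside a median of 0.40 for the other 73 members. Counts of these 3 genes are therefore given as uncertain. Rpl24 was at 0.654, 0.503, 1.76 and 1.14 CPM in WT and 7.86, 5.21, 3.91 and 0 CPM in the knockout, and its log2 fold change of 2.02 (SE 1.31), the largest of the family, rested on few counts and was -0.90 with the Y-linked term in the fit. Rps10 was at 3.46, 9.56, 0.16 and 6.52 CPM and 8.28, 0.417, 10.4 and 15 CPM, with libraries near 0 in both genotypes.

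Pseudogene copies add a further uncertainty. Of the 76 canonical members, 71 share at least 1 stretch of 100 bases with another annotated gene, and 33 share such stretches over 50% or more of their transcript. For the 11 members with under 10% shared, the median log2 fold change was 0.50 with 11 of 11 higher, and for the 33 with 50% or more it was 0.55 with 31 higher. Per coding length, 6 of the 8 highest members were the same as per transcript length. The highest was then Rpl41, at a mean of 7611 CPM per kilobase in WT, against 2223 for Rplp1. Rps15a and Rps20, whose listed transcripts run to 5179 and 3706 bases, stood at 37.9 and 52.6 CPM per kilobase of transcript and at 503 and 546 CPM per kilobase of coding sequence.

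Each paralog was scarcer than its own canonical partner in every library. Rpl22l1, whose splicing and level Rpl22 is known to restrain, was at 14.7, 16.1, 17.9 and 12 CPM in WT and 25.2, 15.3, 23.7 and 21.1 CPM in the knockout. The log2 ratio of Rpl22l1 to Rpl22 was -3.58, -2.75, -3.41 and -3.77 in WT and -2.56, -3.60, -2.41 and -3.78 in the knockout, with overlap. The 2 proteins are 70.3% identical. Rps27l, a p53-induced paralog, was at 35.3, 9.06, 47.8 and 22 CPM in WT and 31.3, 18.4, 31.9 and 37.8 CPM in the knockout, with a log2 fold change of 0.04 (SE 0.40) that was -0.23 without WT replicate 2, -0.07 without WT replicate 4 and -0.09 without knockout replicate 4. Its log2 ratio to Rps27 ran from -4.86 to -3.26 in WT and from -4.54 to -3.55 in the knockout. Rps27 itself was at 390.3, 270.2, 457 and 367 CPM in WT and 405, 413, 373 and 879.7 CPM in the knockout, where replicate 4 stood apart. Rps27l and Rps27 are 96.4% identical over 84 residues, and Rps27rt encodes the same protein as Rps27.

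Rpl7l1, a nucleolar relative of Rpl7 with a role in assembly of the large subunit, did not follow Rpl7. It was at 94, 82.5, 97.3 and 87.2 CPM in WT and 65.3, 119, 75.3 and 58.9 CPM in the knockout, with a log2 fold change of -0.18 (SE 0.23). Rpl7 was at 457, 303, 534 and 429 CPM in WT and 496, 766, 635 and 966 CPM in the knockout (0.73 (SE 0.24)). The log2 ratio of Rpl7l1 to Rpl7 was -2.28, -1.87, -2.46 and -2.30 in WT and -2.93, -2.68, -3.08 and -4.03 in the knockout, so that every knockout library lay below every WT library. The mean ratios differed by -0.95 on the log2 scale, with SDs of 0.25 in WT and 0.59 in the knockout (n = 4 each). Rpl7 belongs to the family that was chosen for standing higher in this contrast. A ratio to Rpl7 therefore tends to fall for any gene that changes little, and the ratio is a description only. The 2 proteins are 40.7% identical.

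The remaining paralogs were at or near 0. Rpl3l, the form of Rpl3 found in striated muscle, was at 0.561, 0.503, 0 and 0.932 CPM in WT and 2.07, 0, 4.14 and 4.92 CPM in the knockout. Rpl39l was at 0, 0, 0 and 0.621 CPM in WT and 0, 3.96, 0 and 0.0833 CPM in the knockout, where replicate 2 was the only library with more than a few counts. Rpl36al was at 0.467, 4.53, 0 and 0 CPM and 2.38, 3.23, 3.57 and 0 CPM, and 63.1% of its transcript is covered by Gm49383. It encodes the same protein as Rpl36a, which was at 154, 99.6, 102 and 156 CPM in WT and 156, 232, 189 and 387 CPM in the knockout (0.91 (SE 0.28)). Rps19bp1 was at 3.36, 11.6, 4.15 and 6.11 CPM in WT and 8.17, 9.91, 3.11 and 5.08 CPM in the knockout, with overlap and a log2 fold change of 0.09 (SE 0.67) that fell below 0 without WT replicate 1 or 3 or knockout replicate 1 or 2.

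Rpl10 and Rps4x have paralogs that are not analysed here. Rpl10, which joins the large subunit late in its maturation, was at 347, 257, 325 and 368 CPM in WT and 454, 534, 401 and 458 CPM in the knockout. Its groups did not overlap (0.51 (SE 0.19)), and knockout replicate 4 was not its highest library. X-linked Rps4x was at 603, 515, 775 and 695 CPM in WT and 660.5, 844, 723 and 1365 CPM in the knockout (0.47 (SE 0.25)). Rpl22 was at 176, 109.7, 191 and 164 CPM in WT and 149, 187, 126 and 290.3 CPM in the knockout, and Rpl39 at 185, 134, 245 and 206 CPM and 137, 179.9, 96.2 and 452 CPM. For both, knockout replicates 1 to 3 fell within the WT range or below it, and only replicate 4 exceeded it. Without that replicate the log2 fold change of Rpl22 was -0.06 and that of Rpl39 -0.49.

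The start of these mRNAs was examined in the promoter sequences of RefSeq (GRCm38.p6), where 56 of the 76 canonical members had an entry. A TOP tract was searched on the strand of the gene, as a C at position -2 to +5 around the annotated start followed by at least 4 pyrimidines. It was found in 22 of 56 members (39.3%) and in 12.2% of 27025 promoters. Runs outside these positions, as in the windows of Rpl4 and Rps25, were not counted. A member without a match at the annotated start may therefore still carry a tract. The 6 members with the longest tracts are shown first because they show the feature most fully. Each line runs from 30 bases before to 20 bases after the start, 5′ to 3′ on the strand of the gene, with the tract in capitals.

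Rpl27a: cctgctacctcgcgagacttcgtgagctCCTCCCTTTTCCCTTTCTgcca
Rpl13a: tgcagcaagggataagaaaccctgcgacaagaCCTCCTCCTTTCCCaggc
Rpl15: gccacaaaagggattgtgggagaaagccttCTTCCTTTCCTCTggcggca
Rpl35: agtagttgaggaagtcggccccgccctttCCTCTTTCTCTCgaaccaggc
Rps10: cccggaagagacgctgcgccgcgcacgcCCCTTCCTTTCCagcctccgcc
Rps18: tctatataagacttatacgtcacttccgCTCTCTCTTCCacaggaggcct

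These windows lie at chr7:109519165-109519214 (plus strand), chr7:45128726-45128775 (minus strand), chr14:18270967-18271016 (minus strand), chr2:39005112-39005161 (minus strand), chr17:27635225-27635274 (minus strand) and chr17:33955646-33955695 (minus strand). Their tracts run from 11 to 18 bases. For these 6 mRNAs the genotypes overlapped and none was called by edgeR: the log2 fold change was 0.53 for Rpl27a, -0.55 for Rpl13a, 0.34 for Rpl15, 0.20 for Rpl35, 0.83 for Rps10 and 0.71 for Rps18, those of Rpl13a and Rps10 resting on uncertain counts. Rpl12, with one of the largest fold changes, Rps6 and Rps26, the small subunit gene that stood lower, are shown to compare their tracts.

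Rpl12: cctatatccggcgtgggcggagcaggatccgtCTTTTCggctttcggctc
Rps6: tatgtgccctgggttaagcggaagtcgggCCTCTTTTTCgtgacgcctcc
Rps26: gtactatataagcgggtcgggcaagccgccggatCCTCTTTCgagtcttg

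They lie at chr2:32961682-32961731 (plus strand), chr4:86857348-86857397 (minus strand) and chr10:128626487-128626536 (minus strand). Rpl12 has a tract of 6 bases, Rps6 of 10 and Rps26 of 8. Over the 56 members, the median log2 fold change was 0.54 for the 22 with a match at the annotated start and 0.56 for the 34 without. This split depends on the annotated start, so it cannot show whether the tract goes with the fold change. Rps27, its retrogene Rps27rt and its paralog Rps27l are shown because Rps27rt encodes the protein of Rps27 and Rps27l one close to it, while their starts differ.

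Rps27: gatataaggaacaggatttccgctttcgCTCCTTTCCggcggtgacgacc
Rps27rt: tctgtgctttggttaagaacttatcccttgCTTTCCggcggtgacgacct
Rps27l: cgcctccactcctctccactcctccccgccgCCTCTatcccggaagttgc

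These lie at chr3:90213629-90213678 (minus strand), chr9:114982720-114982769 (minus strand) and chr9:66946056-66946105 (plus strand). From the end of its tract on, the Rps27rt window carries the letters of the Rps27 window. Rps27rt was at 3.83, 4.53, 5.43 and 2.9 CPM in WT and 4.86, 9.38, 5.07 and 12.1 CPM in the knockout, and 89.5% of its 100-base stretches occur in another gene, so reads of Rps27 could have been counted there.

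Other motifs were counted on both strands over 300 bases (250 before to 50 after the start), where a match of one motif may overlap another. CCGGAAG, the core bound by ETS factors, was found in 39.3% of the 56 members and in 9.12% of all promoters. GGGCGG, bound by SP1, was found in 58.9% and 35.9%, TGACGTCA, the cyclic AMP response element, in 8.93% and 1.88%, and AAGATGGC, bound by YY1, in 7.14% and 2.88%. CACGTG, the E-box read by MYC, was found in 8.93% and 7.24%, and the TATA box TATAAA in 8.93% and 14.2%. These matches are descriptions of the letters in the window.

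The canonical members share other features that the symbol did not use. They lie on 19 chromosomes, 4 of them on the X chromosome. Their median transcript is 814.5 bases, against 3037 for the tested genes outside the family, and their median protein 151.5 residues (25 to 419). Lysine and arginine make up a median of 22.2% of residues, from 6.14% in the acidic stalk protein Rplp1 to 68.0% in Rpl41. Transcript length was set beside the fold changes as well. Of other genes, 72 had a transcript under 500 bases and a median log2 fold change of -0.08, beside 0.59 for the 14 members of that length. Between 500 and 1000 bases the medians were 0.03 for 618 other genes and 0.55 for 44 members. Across the 76 members, the fold change and the transcript length had a Spearman's rho of -0.04, and the fold change and the WT level per kilobase of -0.18, both across genes.

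Genes that act with the ribosomal proteins were read from the same edgeR fit, and none of those on the following lists passed the adjusted threshold. Fau, Rpsa and Rack1, ribosomal proteins that the symbol rule leaves out, all stood higher in the knockout. Fau, a small subunit protein fused to a ubiquitin-like protein, was at 218, 228, 273 and 236 CPM in WT and 258, 427, 267 and 589.9 CPM in the knockout, with a log2 fold change of 0.69 (SE 0.26) (edgeR adjusted p = 0.297). Rpsa, which is also the laminin receptor, was at 1009.7, 1022, 1118 and 1288 CPM in WT and 1170.4, 1608, 1269.8 and 2345 CPM in the knockout (0.53 (SE 0.24), edgeR adjusted p = 0.401). Rack1, a signalling scaffold on the small subunit, was at 1004, 835, 1359 and 1071 CPM in WT and 1129, 1323, 1167 and 2360.5 CPM in the knockout (0.49 (SE 0.26), edgeR adjusted p = 0.498).

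Of 38 ribosome biogenesis genes, 27 were higher and 11 lower, with a median log2 fold change of 0.23, and 5 were higher at an unadjusted p under 0.05 (13.2%, where 6.24% of all genes were). The nucleolar proteins Npm1 and Ncl had log2 fold changes of 0.60 (SE 0.21) and 0.58 (SE 0.23), at edgeR adjusted p = 0.242 and 0.325. Npm1 was at 77.5, 84.5, 84.5 and 68.3 CPM in WT and 90, 146, 105 and 137 CPM in the knockout, where every library exceeded the WT libraries. Of 12 genes of RNA polymerase I and its factors, 8 were higher and 0 reached an unadjusted p under 0.05. Taf1a and Taf1b, subunits of its promoter factor, had the lowest p of that list, with log2 fold changes of 0.60 (SE 0.41) and 0.48 (SE 0.33).

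Of 16 other mRNAs known to carry a TOP tract, 12 were higher, with a median log2 fold change of 0.29, and 4 were higher at an unadjusted p under 0.05 (25%, beside the same 6.24%). Eif3e, a subunit of an initiation factor, was at 104, 61.9, 96.7 and 92.2 CPM in WT and 115, 165, 99.8 and 206 CPM in the knockout (0.72 (SE 0.25), edgeR adjusted p = 0.258). Naca, which binds nascent peptides at the ribosome, was at 159, 131, 151 and 149 CPM in WT and 179, 223, 184 and 256 CPM in the knockout (0.51 (SE 0.19), edgeR adjusted p = 0.297). Among 17 genes of TOP mRNA and mTORC1 control, 12 were higher, and at an unadjusted p under 0.05 2 were higher (11.8%, beside 6.24% of all genes) and 1 lower. Cnbp, which binds TOP mRNAs, was at 241, 201, 220.0 and 219.9 CPM in WT and 309, 413, 288 and 303 CPM in the knockout (0.57 (SE 0.19), edgeR adjusted p = 0.225), and Rheb, the activator of mTORC1, had a log2 fold change of 0.49 (SE 0.22). Rptor, a core subunit of mTORC1, was the lower gene, at 60, 97.1, 59 and 61.3 CPM in WT and 64, 19.6, 32.1 and 53.7 CPM in the knockout, with overlap (-0.70 (SE 0.33), edgeR adjusted p = 0.42).

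Regulators further upstream showed no common direction. Of 8 MYC network genes tested, 5 were higher and the median log2 fold change was 0.04. Mxd1 and Mxd4, partners of Max that oppose MYC, had the lowest p of that list, with log2 fold changes of 1.07 (SE 0.41) and -0.39 (SE 0.19). Of 7 genes on the p53 link, 4 were higher and the median was 0.02. Sesn1, a p53 target that restrains mTORC1, was at 69.9, 56.9, 66 and 66.4 CPM in WT and 65, 73.2, 63.1 and 362 CPM in the knockout, so that its difference came with knockout replicate 4. Trp53 itself had a log2 fold change of -0.16 (SE 0.34), which was 0.088 without WT replicate 1 and 0.02 without knockout replicate 4. Of 9 genes of ribosome quality control, 6 were higher. Nemf, which marks stalled nascent chains, and Edf1, which senses collided ribosomes, had the lowest p there, with log2 fold changes of 0.48 (SE 0.24) and -0.43 (SE 0.24).

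The 19 members mutated in Diamond-Blackfan anemia, a failure of red cell production caused by a missing copy of a ribosomal protein gene, were taken as a group of their own. Of them 18 were higher in the knockout, Rps26 being the other, with a median log2 fold change of 0.51, 8 at an unadjusted p under 0.05 (42.1%) and 5 without overlap between genotypes (26.3%). These shares lay near those of the whole family, 48.8% and 24.4%, and stand beside 6.24% and 4.06% of all genes. Rps19 and Rpl5 of this list are described above.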

How the data were processed

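Per the labels and the study's methods, total RNA of sorted cells (RNA integrity number above 8) was depleted of ribosomal RNA, made into stranded TruSeq libraries and sequenced as paired reads of 150 bases. The deposited values are whole-number counts per gene symbol, made by the authors with HISAT2 on mm10 and featureCounts on a GENCODE annotation; versions are not given in the sources used here. The submitters' processing notes also name FastQC and DESeq2. The paper's methods name RUV normalization of the read counts, a correction for unwanted variation. Whether the deposited counts carry it was not tested. Libraries held 2080555 to 12502949 counts, which limits precision most in WT replicate 2.

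Counts of all 18957 genes were analysed in R 4.3.3. Genes were filtered with filterByExpr (13036 left), scaled by TMM and fitted in edgeR 4.0.16 (glmQLFit, glmQLFTest, genotype only, all 8 libraries) with Benjamini-Hochberg adjustment and a threshold of 0.05; the scripts were tested on simulated data. Log2 CPM for spread and correlations used a prior count of 2 and paralog ratios one of 0.5 per gene. Nothing in the labels pairs the mice. Every library had 1 mouse, and no pair of libraries held like counts (at least 14918 genes differed). Transcript lengths, coding lengths, overlaps and protein identities came from GENCODE M21, which matched all 84 members; the release the authors used is not given in the sources used here. Promoters came from RefSeq. No protein sequence is printed.

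The members and lists were chosen with earlier results of these data known. Genes were named by rule: Lmna, the 6 largest and 6 smallest fold changes of members, the 8 highest and 4 lowest WT levels per kilobase, the 3 largest spreads within genotype, paralogs and their partners, Rps19bp1, members below the filter, the 2 anemia genes and the 2 genes of each list with the lowest p, and Rpsa, Fau and Rack1; 1 gene under this rule is not reported here. Rptor, Rps6, Rps16, Rps15a, Rps20, Rplp0, Rplp2 and the genes with printed promoters were added after their values were seen. Alternatives were DESeq2 1.42.0, voom of limma 3.58.1 with sample weights, scaling by RLE or the upper quartile, TMM without the family, no filter, a minimum of 10 counts, RUVr, a replicate block, leaving out libraries, and, added after the data were seen, the Y-linked term, the fit without WT replicate 2 and knockout replicate 4, and the length of all exons together.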

Additional observations from a re-analysis of the deposited data

Results flagged for a closer look

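Among 124 groups of 4 libraries examined for a single library far from the other 3 (by the 95% limit of Dixon's test on the gap to its nearest neighbour), 14 were marked. For independent groups of normally distributed values, chance marks about 1 group in 20. The groups here share libraries and genes that vary together, so that rate gives no expected count to set beside the 14. Of these 14, 8 fell on knockout replicate 4. That library held 879.7 CPM of Rps27 against 373 to 413 CPM in the other knockout libraries, 790.0 CPM of Rpl3 against 439.7 to 499 CPM, 1298 CPM of Rpl41 against 528 to 600.1 CPM, 705 CPM of Rps15 against 407 to 443 CPM, and 2360.5 CPM of Rack1 against 1129 to 1323 CPM. It also held 362 CPM of Sesn1 against 63.1 to 73.2 CPM, 2776 CPM of the 6 cardiomyocyte markers together against 149.6 to 349.96 CPM, and 403 CPM of the 6 leukocyte markers together against 58.1 to 115 CPM. Whether the level of the ribosomal protein genes in this library goes with its cardiomyocyte and leukocyte transcripts was not tested.

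The other marked values were 196 CPM of Rpl29 in WT replicate 4 against 10.6 to 24.1 CPM in the other WT libraries, 4.53 CPM of Rpl36al in WT replicate 2 against 0 to 0.467 CPM, and 413 CPM of Cnbp in knockout replicate 2 against 288 to 309 CPM. The 4 erythroid markers together were at 646 CPM in knockout replicate 1 against 16.6 to 45.01 CPM in the other knockout libraries. Rpl39l was at 0.621 CPM in WT replicate 4 against 0 in the other WT libraries, and at 3.96 CPM in knockout replicate 2 against 0 to 0.0833 CPM in the other knockout libraries. The values of Rpl36al and Rpl39l rest on low counts.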

How the results depend on the processing

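The median log2 fold change of the members stayed above 0 in all 20 alternatives, and leaving out 1 library at a time gave 0.29 to 0.67, the lowest without knockout replicate 4. It was 0.21 without WT replicate 2 and knockout replicate 4 together. edgeR called 0 members in each leave-one-out fit. DESeq2 called 11 members (Rps19, Rps27a, Rpl12, Rps3a1, Rpl5, Rpl37, Rpl37a, Rps15a, Rps6, Rpl3 and Rpl36a), limma-voom called 1 (Rpl12), the fit with no filter 5 (Rps27a, Rps19, Rpl37a, Rpl12 and Rpl37) and the fit with the Y-linked term 3, all of them higher; since the same contrast chose the family, these calls are descriptions. Over all genes, 53 were called, against 303 with DESeq2, 126 with limma-voom, 274 with no filter, 81 with RUVr, 112 with the Y-linked term, 18 with WT replicates 1 and 4 only, and 13 to 76 when 1 library was left out (lowest without WT replicate 4, highest without knockout replicate 4). The ratio of the family's share was 1.28 to 1.61 over the leave-one-out fits. Same-numbered libraries did not deviate together (r = -0.03, -0.03, -0.00 and 0.04 over all genes), so no pairing was seen. Correlations over all genes cannot exclude a pairing of small effect. A replicate block gave 36 genes, 0 members and a median of 0.52. Of the 8 members with the highest level per transcript length, 4 were among the 8 highest per length of all exons together. The log2 fold change of Trp53 changed sign, with -0.41 to 0.088 over the leave-one-out fits (above 0 without WT replicate 1 or knockout replicate 4) and 0.056 without WT replicate 2 and knockout replicate 4, where that of Sesn1 was -0.0083. Rpl24, Rps10, Rpl3l, Rpl39l and Rpl36al rest on few counts, and 4 libraries per genotype, of unequal sex by Y-linked transcripts, limit the rest.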
